A study of Mus musculus with 6 samples.

Results

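A set of 7 genes that carry survival signals from the bone marrow niche into plasma cells was followed across 6 libraries of sorted mouse long-lived plasma cells. They are the receptor genes Tnfrsf17 (BCMA), Tnfrsf13b (TACI), Tnfrsf13c (BAFF receptor) and Cd28, and the kinase genes Pim1, Pim2 and Pim3. They were chosen by symbol, and 7 of 7 were found among the 13642 genes of the deposited table, each once. All libraries came from C57BL/6J mice. The 3 young libraries came from females of 2 to 3 months, obtained from the Jackson Laboratory or a UCLA animal facility, and the 3 old libraries from males of 17 to 19 months, supplied by a National Institute on Aging colony, so age, sex and supplier cannot be told apart. No genotype or treatment differed. Cells were sorted as CD138 high and negative for B220, IgD, T cell receptors, CD11b and Gr-1. The series describes independent groups of mice for each age, and whether a library is 1 animal or a pool is not given in the sources used here, so a p-value here covers the spread from library to library and no more.

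Plasma cells that no longer divide depend on signals from their niche. The cytokines BAFF and APRIL bind 3 related receptors of the tumour necrosis factor receptor family. BCMA is the receptor most typical of plasma cells and maintains the survival protein Mcl1, TACI is shared by activated B cells and plasma cells, and the BAFF receptor is best known for keeping mature B cells alive through the non-canonical NF-kB pathway. CD28, the costimulatory receptor of T cells, is also used by plasma cells, where it binds CD80 and CD86 on niche cells and signals through phosphoinositide 3-kinase. The Pim genes encode serine/threonine kinases that are active once made, so their output follows transcript and protein levels. They are induced by JAK and STAT signals and NF-kB, and support translation and survival.

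Promoter sequence is shown for the receptor gene that was higher in every old library (Tnfrsf13c), the kinase gene that was lower in every old library (Pim2) and the most abundant kinase gene (Pim1). Each is the stretch from -250 to -51 bases relative to the RefSeq start on GRCm38.p6, with capitals marking an E-box of the letters CAGGTG on either strand. The windows are chr15:82224431-82224630 on the minus strand, chrX:7878056-7878255 on the plus strand and, for the first of 2 Pim1 starts in the table, chr17:29490535-29490734 on the plus strand.
Tnfrsf13c: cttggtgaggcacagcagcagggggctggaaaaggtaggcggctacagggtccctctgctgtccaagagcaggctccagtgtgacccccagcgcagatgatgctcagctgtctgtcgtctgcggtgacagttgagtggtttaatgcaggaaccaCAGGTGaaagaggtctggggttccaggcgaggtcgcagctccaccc
Pim2: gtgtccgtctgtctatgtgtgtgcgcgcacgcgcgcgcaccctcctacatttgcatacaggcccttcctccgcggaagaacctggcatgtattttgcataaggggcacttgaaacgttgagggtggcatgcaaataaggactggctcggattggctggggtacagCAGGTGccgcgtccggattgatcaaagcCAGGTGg
Pim1: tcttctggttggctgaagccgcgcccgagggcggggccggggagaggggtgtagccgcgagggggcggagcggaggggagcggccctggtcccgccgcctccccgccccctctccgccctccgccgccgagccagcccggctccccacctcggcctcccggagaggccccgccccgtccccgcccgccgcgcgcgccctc
The E-box lay at -96 to -91 in Tnfrsf13c and at -85 to -80 and -57 to -52 in Pim2, and Pim1 had none in this window. Of 32851 windows of the same length, 14.4% held it. G and C made up 82.5% of the Pim1 window shown (46.5% at the second Pim1 start), 57.5% of the Pim2 window and 60.5% of the Tnfrsf13c window. The median over all windows was 51.5%. The STAT motif TTCNNNGAA, held by 5.76% of windows, was in none of these 3 sequences, and neither was the NF-kB consensus, held by 5.71%, nor the interferon-stimulated response element, held by 2.40%. Of the remaining members, the interferon-stimulated response element was found in the Tnfrsf17 window and the NF-kB consensus in the Pim3 window, and Cd28 had no entry in the RefSeq table. A match is a description of the letters only.

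Values are FPKM, fragments per kilobase of gene scaled to the mapped total of the library, which allows levels of different genes to be compared per length. From the steps of the low values, the libraries held about 22.6 to 25.5 M fragments in the young group and 27.1 to 27.6 M in the old group. Genes above 0 numbered 10664, 9974 and 8934 in young and 11310, 11880 and 12049 in old libraries, more in every old one. Young replicate 3 had the fewest fragments and the fewest genes above 0. Sdc1, which encodes the sorted CD138, was at 236, 407 and 321 FPKM in young and 274, 349.8 and 174 in old libraries, and the Y-linked gene Ddx3y matched the sex labels in 6 of 6 libraries. Old replicate 3 stood apart. The geometric mean of 13 plasma cell identity genes was 181 FPKM there and between 346 and 393 in the other 5 libraries. Summed FPKM of 6 basophil and mast cell markers was 694 in old replicate 3 and 11.8 to 77.5 elsewhere, that of 6 erythroid markers 752 against 0.320 to 279, and that of 10 monocyte and macrophage markers 669 against 88.2 to 364. Neutrophil markers summed to 938 there and to 1286 in old replicate 2, against 265 to 570.0 elsewhere. Fewer plasma cells in a library and less of a transcript per cell cannot be told apart in bulk samples, so the differences of the members are also given without old replicate 3 or with each library left out.

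BCMA and Pim1 transcripts had the highest means of the set in both groups, and CD28 and Pim3 the lowest. In young libraries the means ran from Tnfrsf17 (461 FPKM) through Pim1 (384), Tnfrsf13b (221), Tnfrsf13c (87.9), Pim2 (59.2) and Cd28 (35.2) to Pim3 (10.3). In old libraries they ran from Pim1 (272) through Tnfrsf17 (259.9), Tnfrsf13c (203), Tnfrsf13b (196), Pim2 (16.1) and Cd28 (11.5) to Pim3 (5.69). Of neighbours in the young order, Tnfrsf17 and Pim1 overlapped in range, as did Tnfrsf13c and Pim2, and the other neighbours did not. In the old order all neighbours overlapped except Tnfrsf13b and Pim2, where the lowest Tnfrsf13b value was 100.05 FPKM and the highest Pim2 value 23.3. Tnfrsf17 ranked between 49 and 126 of 13642 genes across the young libraries, compared with 79, 106 and 380 across the old. Pim1 held ranks 76, 76 and 78 across the young libraries, compared with 104, 85 and 197 across the old. Cd28 ranked between 1339 and 1919 in the young group and at 5469, 2389 and 8484 in the old group.

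**Figure D1:**
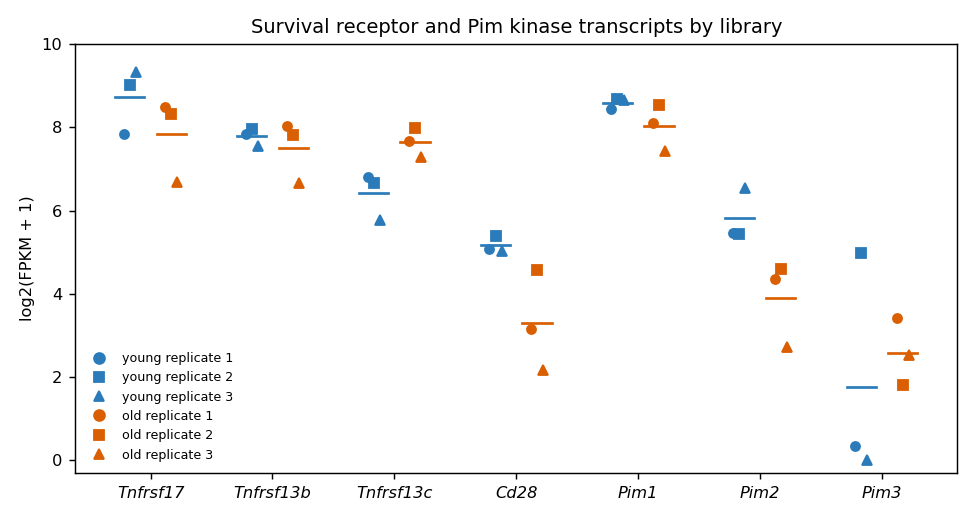
Log2(FPKM + 1) of the 7 genes in each library, 1 symbol per library (blue young, orange old) with a line at each group mean on this scale. Tnfrsf13c is higher in every old library, Cd28 and Pim2 are lower in every old library, and the other 4 genes overlap between groups.

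Of the 3 receptors for BAFF and APRIL, the BAFF receptor transcript was higher in old libraries, while BCMA and TACI overlapped between groups. Tnfrsf13c (chromosome 15, 82221743 to 82224369, minus strand, GRCm38) was at 110.03, 99.6 and 54.0 FPKM across the young libraries, compared with 202, 250.3 and 156 across the old. Every old library was above every young one, and the lowest old value was that of old replicate 3. The means were 87.9 ± 29.8 and 203 ± 47.3 FPKM (SD, n = 3 each), a ratio of 2.31, and 2.57 with old replicate 3 left out. Its log2 change, old minus young on log2(FPKM + 1), was 1.23 ± 0.36 (SE; 95% interval 0.43 to 2.03), with a limma adjusted p = 0.73 over all 10687 genes tested. The transcript was thus separated between groups in these libraries, but did not pass the test across the transcriptome. Of 10 tested B cell markers, 2 were higher in every old library, against 8.78% of all tested genes. Blk, a B lineage kinase, was at 10.97, 15.4 and 2.56 FPKM in young and 44.9, 43.6 and 16.1 in old libraries, and Ms4a1, which encodes CD20, at 2.68, 6.15 and 1.41 against 25.3, 15.5 and 6.31. Of the others, 1 was lower in every old library, against 3.42% of all tested genes, and the rest overlapped. The lower one was Pax5, the B cell identity factor, at 2.77, 7.26 and 2.45 FPKM in young and 2.08, 2.03 and 2.44 in old libraries. Summed over 11 B cell markers, young libraries were at 553, 436 and 424 FPKM and old ones at 752, 618 and 272. Most of this sum was Cd79a and Cd79b in every library, so it mainly follows these genes. Cd79a was at 247, 203 and 152 FPKM in young and 495, 283 and 91.6 in old libraries, and Cd79b at 208, 142 and 206 against 122, 228 and 105. The part of B cells in the difference was not tested.

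Tnfrsf17 (chromosome 16, 11313812 to 11320074, plus strand) was at 226, 518 and 639.7 FPKM across the young libraries, compared with 359, 318 and 103 across the old. Young replicate 1 lay below old replicates 1 and 2, so the groups overlapped. The means were 461 ± 212 and 259.9 ± 138 FPKM (SD, n = 3 each), and the log2 change of -0.89 ± 0.52 (SE; 95% interval -2.05 to 0.27) had a limma adjusted p = 0.84. The highest library held 6.23 times the BCMA transcript of the lowest. The log2 change was -0.32 without old replicate 3 and -1.34 without young replicate 1.

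Tnfrsf13b (chromosome 11, 61126755 to 61149372, plus strand) was at 227, 249.6 and 187 FPKM across the young libraries, compared with 262, 225 and 100.05 across the old. Old replicate 3 was low and the other 5 libraries lay close together. The log2 change was -0.28 ± 0.38 (SE; 95% interval -1.12 to 0.57; limma adjusted p = 0.90), and 0.14 without old replicate 3. The interval reaches more than 1 log2 unit below 0, so equal levels are not shown. A processed pseudogene, Gm12269, overlaps the gene on the opposite strand and is not among the genes analysed here, and whether counting used strand is not given in the sources used here.

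The groups overlapped in the sum of the 3 receptors, but not in the share held by the BAFF receptor. Together they reached 563, 867 and 881 FPKM across the young libraries, compared with 823, 793 and 358 across the old. Tnfrsf13c made up 19.5%, 11.5% and 6.14% of this sum in the young group and 24.6%, 31.5% and 43.4% in the old group, or 12.4% ± 6.75 against 33.2% ± 9.53 (SD, n = 3 each; two-sided exact permutation p = 0.1, below which a design of 3 against 3 cannot go; adjusted over 6 shares, 0.2). Tnfrsf17 made up 57.5% ± 16.3 and 37.4% ± 7.82 (exact permutation p = 0.2, adjusted 0.3), with overlap, and Tnfrsf13b 30.1% ± 9.57 and 29.4% ± 2.14. There were 2.06, 5.20 and 11.8 BCMA transcripts per BAFF receptor transcript in young libraries, on the FPKM scale, and 1.77, 1.27 and 0.659 in old ones. In old replicate 3 the BAFF receptor was the most abundant of the 3, and in the other 2 old libraries BCMA was. Without old replicate 3 the share of Tnfrsf13c was still higher in old libraries, by 15.7 percentage points against 20.8 with all 6.

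**Figure D2:**
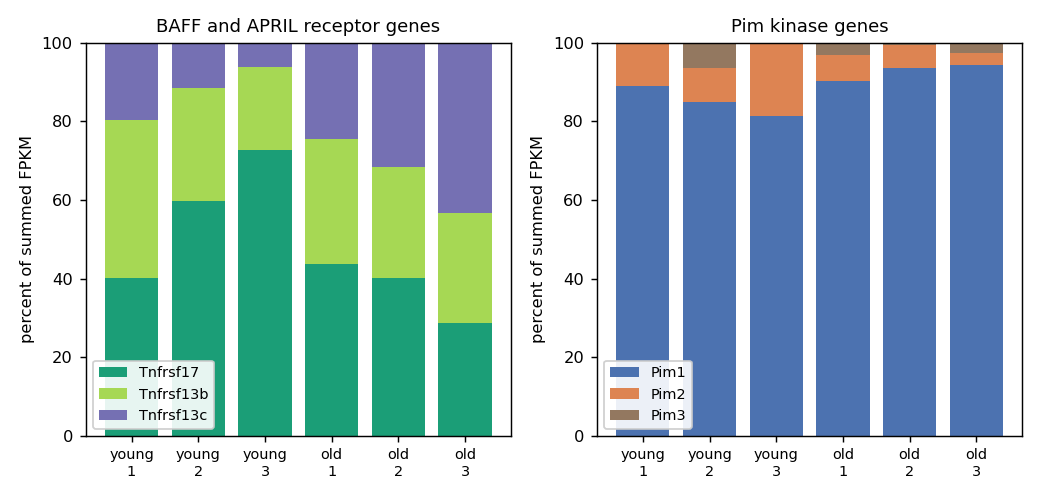
Share of each gene in the summed FPKM of the BAFF and APRIL receptor genes (left) and of the Pim genes (right), in percent, 1 bar per library. The Tnfrsf13c share is 6.14% to 19.5% in young and 24.6% to 43.4% in old libraries, and the Pim2 share 8.80% to 18.8% against 3.11% to 6.43%.

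CD28 transcript was lower in every old library. Cd28 (chromosome 1, 60716800 to 60773359, plus strand) was at 32.7, 41.1 and 31.9 FPKM across the young libraries, compared with 7.96, 22.9 and 3.53 across the old. The young values lay close together and the old ones were spread widely, with old replicate 2 nearest to the young group. The means were 35.2 ± 5.13 and 11.5 ± 10.1 FPKM (SD, n = 3 each), 3.08 times higher in young libraries, and 2.29 times with old replicate 3 left out. The log2 change was -1.86 ± 0.63 (SE; 95% interval -3.27 to -0.45; limma adjusted p = 0.74), -1.30 without old replicate 3 and -2.50 without old replicate 2. T cells also carry CD28, and of 13 T cell markers 5 to 8 were at 0 in a young and 3 to 5 in an old library. The T cell receptor component genes Cd3d and Cd3e were at 0 in all 3 young libraries and at most 1.89 and 2.73 FPKM in any old library. The related Cd3g, was at 0.0860, 1.74 and 5.05 in young and 0, 2.52 and 0.0437 in old libraries, and Cd4 at 23.4, 8.91 and 8.34 against 5.11, 2.00 and 9.44. Lat, an adaptor of T cell receptor signalling, was at 9.04, 0 and 33.3 in young and 0.839, 1.09 and 1.63 in old libraries, and the adhesion receptor gene Cd2 at 3.05, 17.6 and 0 against 32.3, 29.3 and 3.06. The T cell markers thus differed among themselves in direction. Summed over the 13 markers, the young libraries were at 37.0, 28.4 and 54.9 FPKM and the old ones at 43.3, 44.5 and 18.9. The part of T cells in the Cd28 difference was not tested.

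Among the Pim kinases, Pim1 dominated, Pim2 was lower in every old library, and Pim3 was uneven. Pim2 (chromosome X, 7878262 to 7883432, plus strand), the family member most closely tied to plasma cells and myeloma, was at 43.1, 42.1 and 92.4 FPKM across the young libraries, compared with 19.5, 23.3 and 5.62 across the old. Each young value was above each old one, and the extremes were young replicate 3 and old replicate 3. The means were 59.2 ± 28.8 and 16.1 ± 9.31 FPKM (SD, n = 3 each), 3.67 times higher in young libraries, and 2.77 times with old replicate 3 left out. The log2 change was -1.92 ± 0.59 (SE; 95% interval -3.22 to -0.61; limma adjusted p = 0.74), and -1.33 without old replicate 3. Pim2 lies on chromosome X, and young libraries were female and old ones male, so for this gene too age and sex cannot be told apart. The median log2 change was 0.38 over the 319 tested genes of that chromosome, against 0.23 over all tested genes, and 0.06 over its 74 genes of at least 20 FPKM, against 0.02 over all genes of that level. The value for Pim2 in old replicate 3, the smallest of the 6, still rested on about 433 fragments by its exon length.

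Pim1 (chromosome 17, 29490753 to 29496112, plus strand) was at 347, 406 and 399.8 FPKM across the young libraries, compared with 274, 373 and 170.1 across the old. The young values were tight, and old replicate 2 lay within their range. The means were 384 ± 32.3 and 272 ± 101 FPKM (SD, n = 3 each), with a log2 change of -0.56 ± 0.32 (SE; 95% interval -1.28 to 0.16; limma adjusted p = 0.84). Without old replicate 3 the change was -0.26. An antisense gene, Gm26885, overlaps the 5′ end of Pim1 and is not among the genes analysed here.

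Pim3 (chromosome 15, 88862186 to 88865726, plus strand) was at 0.262, 30.6 and 0 FPKM across the young libraries, compared with 9.78, 2.48 and 4.81 across the old. Young replicate 2 held the highest value of all and the other 2 young libraries the lowest. Its mean FPKM was higher in young libraries while its log2 change was positive, 0.82 ± 1.30 (SE; 95% interval -2.08 to 3.72; limma adjusted p = 0.92), so the sign depends on the scale. The value of young replicate 1 corresponded to about 15.6 fragments by exon length.

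Pim1 made up most of the kinase transcript in every library. Its share of the summed Pim FPKM was 88.9%, 84.8% and 81.2% in young and 90.3%, 93.5% and 94.2% in old libraries, and that of Pim2 was 11.04%, 8.80% and 18.8% against 6.43%, 5.84% and 3.11%. Neither share overlapped between groups. The means for Pim2 were 12.9% ± 5.23 and 5.13% ± 1.77 (SD, n = 3 each; two-sided exact permutation p = 0.1, adjusted 0.2). There were 8.05, 9.63 and 4.33 Pim1 transcripts per Pim2 transcript across the young libraries, compared with 14.0, 16.0 and 30.3 across the old, on the FPKM scale. Without young replicate 3, the library with the highest Pim2, the Pim2 share was 4.79 percentage points lower in old libraries, against 7.74 with all 6.

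Across the 7 genes, limma called 0 at an adjusted p under 0.05, as it called 0 of the 10687 genes tested (0% of the background), while 632 genes (5.91%) had an unadjusted p under 0.05. The Y-linked Ddx3y, at most 0.0078 FPKM in young and 39.4, 25.2 and 34.4 in old libraries, was not called either (log2 change 5.06, limma adjusted p = 0.14). A gene that was not called is therefore not shown to be unchanged. All 7 members passed the filter of a mean of at least 1 FPKM. The lowest adjusted p of any of them over the alternatives tried was 0.37, for Tnfrsf13c without young replicate 1. With young replicate 3 left out limma called 7 genes and with young replicate 1 left out it called 1, and 0 of the 7 members were among them. The members were chosen with earlier results of these data known, so the counts beside background shares are a description and no test. Groups did not overlap for 3 of the 7, against 12.2% of all tested genes. Of those, Tnfrsf13c had every old library above every young one, as 8.78% of tested genes did, and Cd28 and Pim2 every old library below, as 3.42% did. These shares depend on level. Among the 2835 tested genes of at least 20 FPKM, where these 3 belong by mean, 132 lay above in this way and 155 below. Of all tested log2 changes, 0.982% were below that of Cd28 and 0.898% below that of Pim2, and 83.5% were below that of Tnfrsf13c. The median log2 change was 0.23 over all tested genes and 0.02 over the 2835 tested genes of at least 20 FPKM. After quantile normalization, where the median of all genes was -0.01, the log2 changes were 1.29 for Tnfrsf13c, -2.11 for Cd28 and -2.04 for Pim2.

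**Figure D3:**
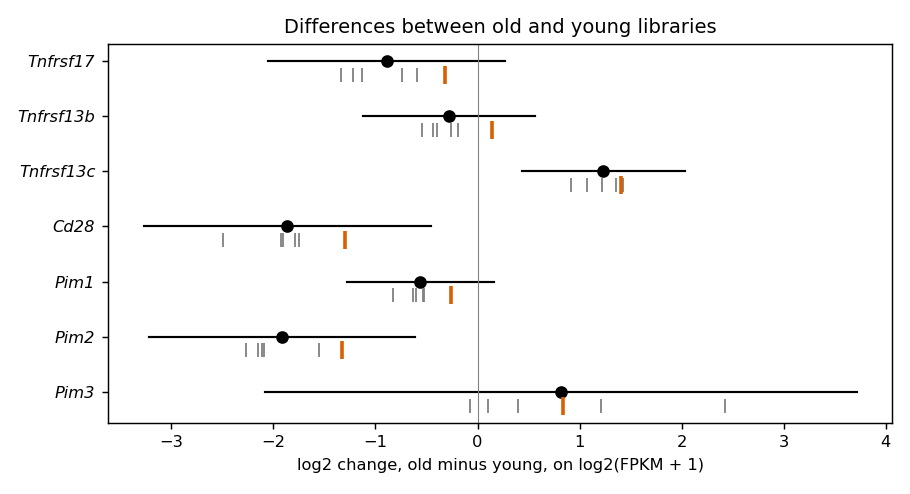
Log2 change, old minus young, of each gene with its 95% interval from limma (black) and the value with each library left out in turn (ticks, orange for old replicate 3). The intervals of Tnfrsf13c, Cd28 and Pim2 lie to 1 side of 0, each with a limma adjusted p of 0.73 or 0.74, and Tnfrsf13b and Pim3 have ticks on both sides of 0.

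Set against the plasma cell genes of the same library, Tnfrsf17, Pim1 and Tnfrsf13b overlapped between groups, while Cd28, Pim2 and Tnfrsf13c did not. The log2 ratio of Pim1 to the geometric mean of the 13 plasma cell identity genes was 0.00, 0.05 and 0.12 in young and -0.42, 0.05 and -0.09 in old libraries. That of Tnfrsf13b was -0.61, -0.65 and -0.98 against -0.49, -0.68 and -0.86. On this scale the lowest library was old replicate 1 for Pim1 and young replicate 3 for Tnfrsf13b, and old replicate 3 was the lowest for neither. It was the lowest for Tnfrsf17, at -0.61, 0.40 and 0.80 in young and -0.03, -0.18 and -0.82 in old libraries. For Cd28 the ratios were -3.40, -3.26 and -3.53 in young and -5.53, -3.98 and -5.68 in old libraries, and for Pim2 -3.01, -3.22 and -1.99 against -4.23, -3.95 and -5.01. For Tnfrsf13c they were -1.65, -1.98 and -2.77 against -0.86, -0.52 and -0.22, with old replicate 3 the highest of the 6. These 3 genes kept their groups apart, with log2 differences of -1.66, -1.66 and 1.60 in the order given (two-sided exact permutation p = 0.1 each; adjusted over 7 ratios, 0.23). With Sdc1 alone as the reference the differences were -1.72, -1.72 and 1.54 in the same order.

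**Figure D4:**
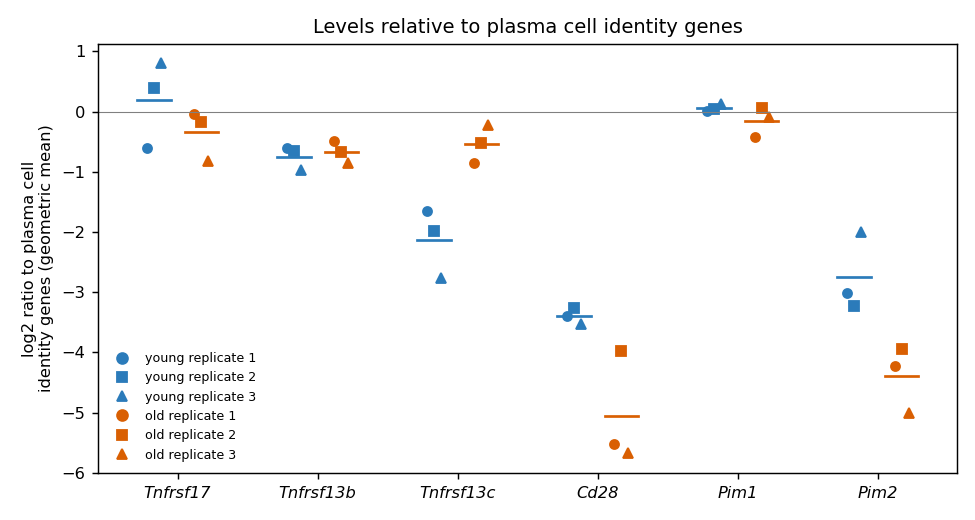
Log2 ratio of 6 of the genes to the geometric mean of 13 plasma cell identity genes in the same library, 1 symbol per library with a line at each group mean. Pim3 is left out because 1 library was at 0. The groups stay apart for Tnfrsf13c, Cd28 and Pim2 and overlap for Tnfrsf17, Tnfrsf13b and Pim1.

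Genes upstream and downstream of the receptors and kinases were taken from lists, and limma called 0 in each of them. Of all 10687 tested genes 61.3% had a positive log2 change, and of the 2835 of at least 20 FPKM 51.4% did. The background for the counts by sign thus depends on level, and the lists hold genes of both kinds. Of 11 ligand and coreceptor genes, 9 were in the table and 7 tested, 3 with a positive and 4 with a negative log2 change. Ligand genes were uneven between libraries. Tnfsf13b, which encodes BAFF, was at 0 across the young libraries, compared with 5.22, 1.59 and 0 across the old. Tnfsf13, which encodes APRIL, is not among the genes analysed here, so its level is not given. Of the CD28 ligand genes, Cd80 was at 0, 6.28 and 0 FPKM in young and 14.95, 0.352 and 0 in old libraries, and Cd86 was at most 0.386 in any library. Of 9 genes for the gamma-secretase and ADAM proteases that shed BCMA, TACI or the BAFF receptor, 7 were tested, 5 positive and 2 negative, with a median log2 change of 0.56. Adam10 was at 30.3, 7.14 and 19.95 FPKM in young and 24.1, 31.2 and 46.9 in old libraries. The groups overlapped.

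The TRAF and NF-kB list held 24 tested genes, 9 positive and 15 negative. Its median was -0.15, against 0.23 over all tested genes and 0.02 over those of at least 20 FPKM. Tnfaip3, a feedback inhibitor of NF-kB, was at 31.2, 25.2 and 66.3 FPKM in young and 13.9, 12.7 and 19.9 in old libraries, with no overlap. Nfkb2, the precursor of the non-canonical NF-kB subunit that acts downstream of the BAFF receptor, was at 137, 54.3 and 206 against 50.8, 62.9 and 60.3. Its groups overlapped, and the highest 2 values were young. Map3k14, the kinase NIK of the same pathway, was at 5.13, 0.648 and 4.75 against 7.89, 9.50 and 6.93. Map3k14 and Chuk were higher in every old library, 2 of 24 genes against 8.78% of all tested genes. Tnfaip3 and Nfkbie were lower in every old library, 2 of 24 against 3.42%. The limma adjusted p for the list was at least 0.83.

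Of the 25 tested CD28 signalling genes, 16 were positive and 9 negative, with a median of 0.20. Fyn, a Src family kinase, was at 8.97, 14.9 and 8.62 FPKM in young and 74.6, 37.1 and 34.998 in old libraries, without overlap (log2 change 2.03 ± 0.49, SE; limma adjusted p = 0.62). Foxo1, a transcription factor held in check by phosphoinositide 3-kinase and Akt, was at 3.08, 4.36 and 2.74 against 20.6, 14.4 and 9.44, also without overlap (limma adjusted p = 0.79). In this list 2 of 25 genes were higher and 0 lower in every old library, against 8.78% and 3.42% of all tested genes. Plcg2, a phospholipase of B lineage receptor signalling, was chosen after its values were seen as the most abundant gene of the list, and stayed between 120 and 158 FPKM in all 6 libraries.

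The JAK and STAT list that feeds the Pim genes had 17 tested genes, 5 positive and 12 negative, with a median of -0.07. The groups overlapped for each of the 17, and over all tested genes 12.2% did not overlap. Il2rg, the common cytokine receptor chain, was at 33.1, 107 and 85.3 FPKM in young and 66.5, 42.9 and 4.35 in old libraries. Of 19 Pim substrates and partners, all tested, 6 were positive and 13 negative, with a median of -0.25. Mcl1, the survival protein maintained through BCMA, was at 280.4, 237 and 282 FPKM in young and 139.98, 170.01 and 208 in old libraries, without overlap (log2 change -0.64 ± 0.28, SE; limma adjusted p = 0.84). Its lowest value was in old replicate 1 and not in old replicate 3. In this list 1 of 19 genes was higher and 2 were lower in every old library, against 8.78% and 3.42% of all tested genes. Bcl2l11, which encodes the Mcl1-binding death protein Bim, was at 27.3, 9.13 and 14.2 against 5.95, 6.01 and 9.81. Of the 13 tested genes among other TNF receptor family members, 9 were positive and 4 negative. Tnfrsf1a was at 0 across the young libraries, compared with 3.71, 3.77 and 14.8 across the old, the last in old replicate 3. Tnfrsf26 was at most 0.0135 in young and 1.67, 9.32 and 4.12 FPKM in old libraries. Every old library had more genes above 0 than any young one, and the part of this in such values was not tested.

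**Figure D5:**
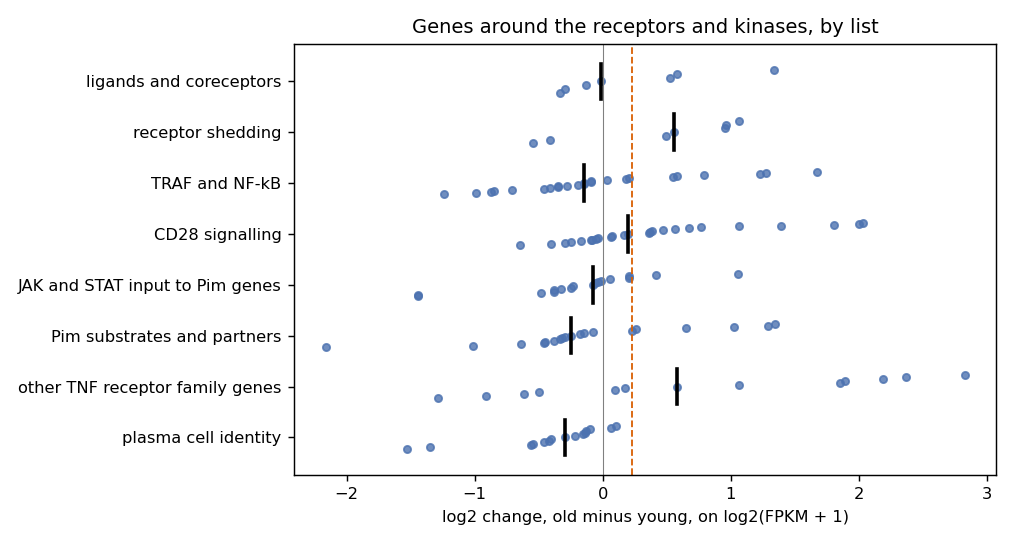
Log2 change, old minus young, of each tested gene in 8 lists around the receptors and kinases (points, sorted within a list), with the list median (black bar) and the median of 0.23 over all tested genes (dashed). List medians run from -0.29 for plasma cell identity to 0.58 for other TNF receptor family genes.

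The genes whose pattern over the 6 libraries was most like that of a member are given by Pearson correlation of log2(FPKM + 1). This is a description over libraries that differ in depth and composition. For Tnfrsf17 they were Swap70 (r = 0.99), Cnpy2 (0.99) and St8sia6 (0.98). Cnpy2 followed at 138, 277 and 326 FPKM in young and 175, 197 and 77.6 in old libraries. For Tnfrsf13b they were Tmem39a (0.99), Syvn1 (0.98) and Necap1 (0.98). Syvn1, a ubiquitin ligase of endoplasmic reticulum quality control, was at 84.9, 115 and 72.9 against 95.6, 84.1 and 29.4. For Tnfrsf13c they were Ahi1, Btg1 and C130026I21Rik (r = 0.98 to 1.00), of which Btg1, an antiproliferative gene, was at 5.36, 5.06 and 0.836 against 18.7, 17.8 and 9.03. For Cd28 they were Slc50a1 (0.99), Aar2 (0.98) and Fam136a (0.97), and Slc50a1 was also among the 3 nearest to Pim1, beside Srm (1.00) and Gimap1 (0.98). Srm, which encodes spermidine synthase, was at 60.1, 67.6 and 66.1 FPKM in young and 49.3, 64.2 and 30.6 in old libraries. For Pim2 they were Hbs1l (1.00), Reln (1.00) and Pik3c2b (0.99), and for Pim3 Map3k9 (0.99), Slc7a3 (0.99) and Slco5a1 (0.98). Between 48 and 141 of the 10687 tested genes reached r = 0.9 with each member, so over 6 libraries the genes named are not alone in such likeness.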

How the data were processed

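RNA of sorted plasma cells (5 ng a library) was sequenced with a stranded total-RNA kit, per the labels' protocols. The authors deposited 1 table of FPKM values. The submitters' processing notes name bcl2fastq 2.17, STAR and DESeq2, without roles, and GRCm38 and mm10. Columns were matched to samples by group and replicate number in their titles. Log2(FPKM + 1) of the 10687 genes with a mean of at least 1 FPKM was tested with limma 3.58.1 (mean-variance trend, R 4.3.3), two-sided, with Benjamini-Hochberg adjustment over all genes tested and a threshold of 0.05. The test was checked on simulated data with shifts larger than the log2 change of any member, so the check does not cover changes of the size reported for the members. Shares and ratios within libraries were tested by exact permutation (Python 3.11.15). Alternatives covered pseudocount, filter, scaling, weights, moderation, replicate block and each library left out.

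Depth was estimated from the smallest FPKM step with GENCODE M21 exon lengths, so fragment numbers are approximate. Amplified fragments are not independent molecules. Positions come from GENCODE M21 on GRCm38, which may differ from the annotation used for counting. Promoters come from RefSeq on GRCm38.p6, with 6 of 7 members matched.

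The members and gene lists were chosen with earlier results of these data known. The named genes are the 7 members, up to 3 genes of smallest p per list, the 3 genes most correlated with each member, Sdc1 and Ddx3y. Genes named beyond these (Cd80, Cd86, Map3k14, Nfkbie, Pax5, Cd79a, Cd79b, Cd3d, Cd3e, Cd3g, Plcg2) were chosen after their values were seen. Some genes that this rule names are not reported here.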

Additional observations from a re-analysis of the deposited data

How the results depend on the processing

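No gene of the 7 was called under any alternative. Over all genes, the number called by limma was 0 as reported and 1 under quantile normalization, array weights or robust moderation, and 0 to 7 with single libraries left out. With the replicate block it was 0 as well, with 571 genes at an unadjusted p under 0.05. Deviations of same-numbered libraries correlated at -0.03, 0.02 and -0.004, and those of differently numbered ones at -0.04 to 0.05. No effect shared by replicate number was seen, which cannot show that the libraries were unpaired. The log2 changes of Tnfrsf17, Tnfrsf13c, Cd28, Pim1 and Pim2 kept their sign in all 15 alternatives. With single libraries left out the log2 change ranged from -0.069 to 2.42 for Pim3 and from -0.55 to 0.14 for Tnfrsf13b. The difference in share ranged from -1.06 to 2.14 percentage points for Pim3 and from -5.14 to 4.36 for Tnfrsf13b, and from -0.20 to 0.24 for the log2 ratio of Tnfrsf13b to Sdc1. Taken as ratios of summed FPKM, the share difference was -0.33 for Pim3 and 1.02 for Tnfrsf13b, and the log2 ratio of Pim3 to Sdc1 differed by -0.58 against 1.07. The 1.07 is a difference in mean log2 ratio that rests on 2 young libraries, since young replicate 3 was at 0. The summed ratio includes that library. What caused the other shifts was not tested. The plasma cell gene reference was chosen after seeing the data. With 3 libraries a group, exact tests cannot go below 0.1, and limma's intervals for the members were 1.44 to 5.80 log2 units wide.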
